A study of Mus musculus with 4 samples.

Results

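Replication timing was examined around 10 genes whose transcription factors direct the formation of mesoderm and endoderm: *T* (Brachyury), *Eomes*, *Mixl1*, *Mesp1*, *Gata4*, *Gata6*, *Sox17*, *Foxa2*, *Hnf4a* and *Cdx2*. The genes were chosen by name, and their positions are the GENCODE vM21 gene bodies on mm10, among 21679 protein-coding genes with a value on the 19 autosomes and X. They overlap 13 bins of 50 kb, and the bins within 1 Mb on each side bring the number to 413 of 51153 bins, all with a value. The cells were diploid F121-9 mouse embryonic stem cells, a hybrid cas/129 line kept in N2B27 medium with 2i and LIF, which holds the cells in the undifferentiated state. No treatment is named in the labels, and this line is the only one analysed here. Of the 4 libraries, 2 held BrdU-labeled DNA from cells sorted early in S-phase and 2 from cells sorted late in it. The deposited value of each bin, RT, is the log2 of early over late reads after both were scaled to their library's total (RPM), so that RT above 0 means more early than late reads. The deposited column names neither a replicate nor a homolog and is read here as a value over all libraries, so RT has no replicate error, and the number of reads behind a bin is unknown. The spread given here is the noise between neighboring bins in flat stretches of the profile, an SD of 0.16 log2 over 6473 bins, which does not cover differences between cultures.

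During gastrulation, cells of the epiblast pass through the primitive streak and become mesoderm and definitive endoderm under Nodal, BMP, Wnt and FGF signals. T and Eomes are T-box factors and Mixl1 is a homeobox factor of the streak, and Mesp1 marks the earliest cardiac mesoderm. Gata4 and Gata6 are zinc finger factors of heart and endoderm, Sox17 and Foxa2 specify endoderm, Hnf4a acts in visceral endoderm and liver, and Cdx2 acts in trophectoderm and in the posterior body. In most cell types, early replication goes with open and transcribed chromatin, and domains that change their timing in differentiation often hold developmental genes. RT is a property of domains that are far longer than these genes, and it does not measure their expression, so the labeled cell type could not be checked against marker levels.

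The members lay on both sides of RT 0, and the late ones were close to it. RT, averaged over the bins of each gene body, was above 0 for 7 of 10 members, compared with 72.5% of all protein-coding genes and 40.9% of all bins. The median over the members was 2.18, and over all protein-coding genes it was 2.23, with quartiles of -0.33 and 3.31. *Sox17*, *Gata6* and *Foxa2* were the members with RT below 0. Their RT lay between -0.61 and -0.36, and 7.27% of all protein-coding genes had RT from -1 to 0. None of the 10 members had RT below -1, whereas 20.3% of all protein-coding genes did. That count rests on *Foxa2*, which had RT -1.38 after a running median over 5 bins and -1.19 with 2 more bins on each side, so that 1 of 10 members was then below -1.

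*Mesp1* had the highest RT, 3.52, followed by *Mixl1* at 3.21, and these were the members above RT 3, where 35.4% of all protein-coding genes lay. A group of 4 genes came next: *Eomes* at 2.35, *Hnf4a* at 2.33, *Gata4* at 2.32 and *Cdx2* at 2.04. *T* had RT 1.62. *Sox17* at -0.36, *Gata6* at -0.49 and *Foxa2* at -0.61 closed the order. The noise SD of a difference was taken from the noise per bin and the numbers of bins. Neighbors in this order differed by more than 2 such SD at 2 places, between *Mixl1* and *Eomes* (0.87) and between *T* and *Sox17* (1.98). The other neighbors were within that noise, *Mesp1* and *Mixl1* (0.31) and *Cdx2* and *T* (0.42) included. In rank, *Mesp1* was earlier than 85.5% of protein-coding genes, *T* than 42.4% and *Foxa2* than 23.0%.

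**Figure D1:**
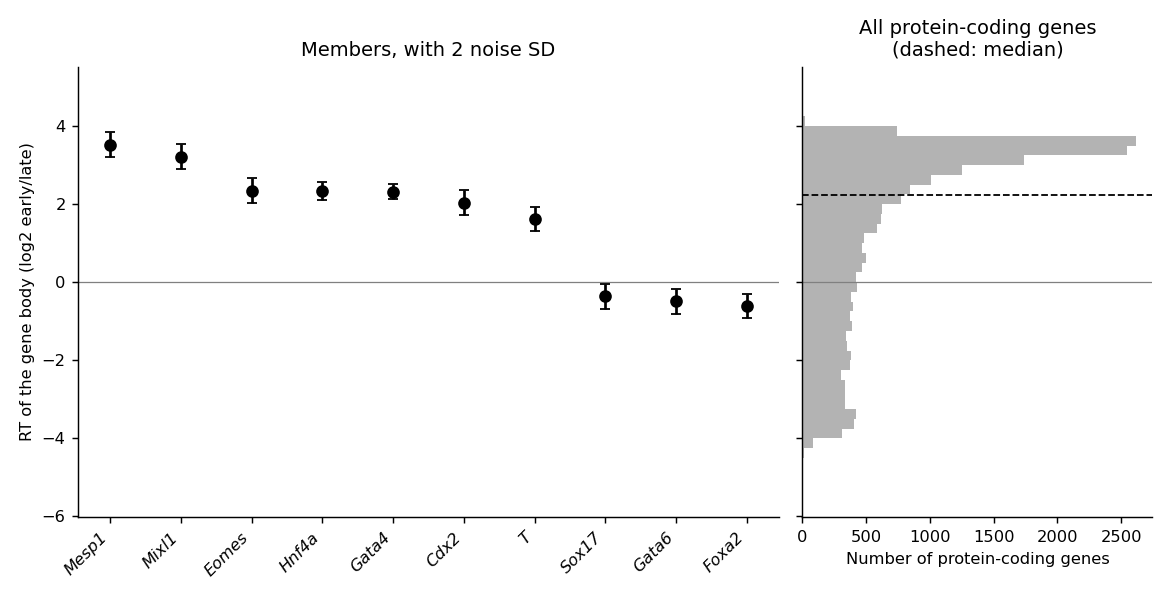
RT (log2 early over late) of the gene bodies of the 10 members, in descending order. Bars are 2 noise SD of the mean over the gene's bins, the SD per bin divided by the square root of their number. This treats the noise of neighboring bins as independent. Beside them is a histogram of RT over the 21679 protein-coding genes with its median dashed. The 3 members below 0 lie between -0.61 and -0.36, and *T*, the member next above them, is at 1.62.

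The share of early bins around the genes covered a wide range. Over the 413 bins, RT was above 0 in 285, or 69.0%. The exact binomial 95% interval, 64.3% to 73.4%, treats the bins as independent, which neighboring bins are not. It does not cover the spread between the windows, which was far wider. A different measure, the median over all protein-coding genes of the share in each gene's own window, was 69.0%. The share of the members is pooled over bins, so these values are not like for like. By member the share was 100% for *Mesp1* and *Cdx2*, 97.7% for *Gata4*, 97.6% for *Mixl1*, 88.1% for *Hnf4a*, 63.4% for *Eomes* and for *Gata6*, 36.6% for *Sox17*, 24.4% for *T* and 17.1% for *Foxa2*. *T* was thus an early gene in a mostly late window, and *Gata6* a late gene in a mostly early one. RT spanned 2.15 log2 in the window of *Mesp1*, the smallest range, and 7.51 log2 in that of *Eomes*, the largest.

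**Figure D2:**
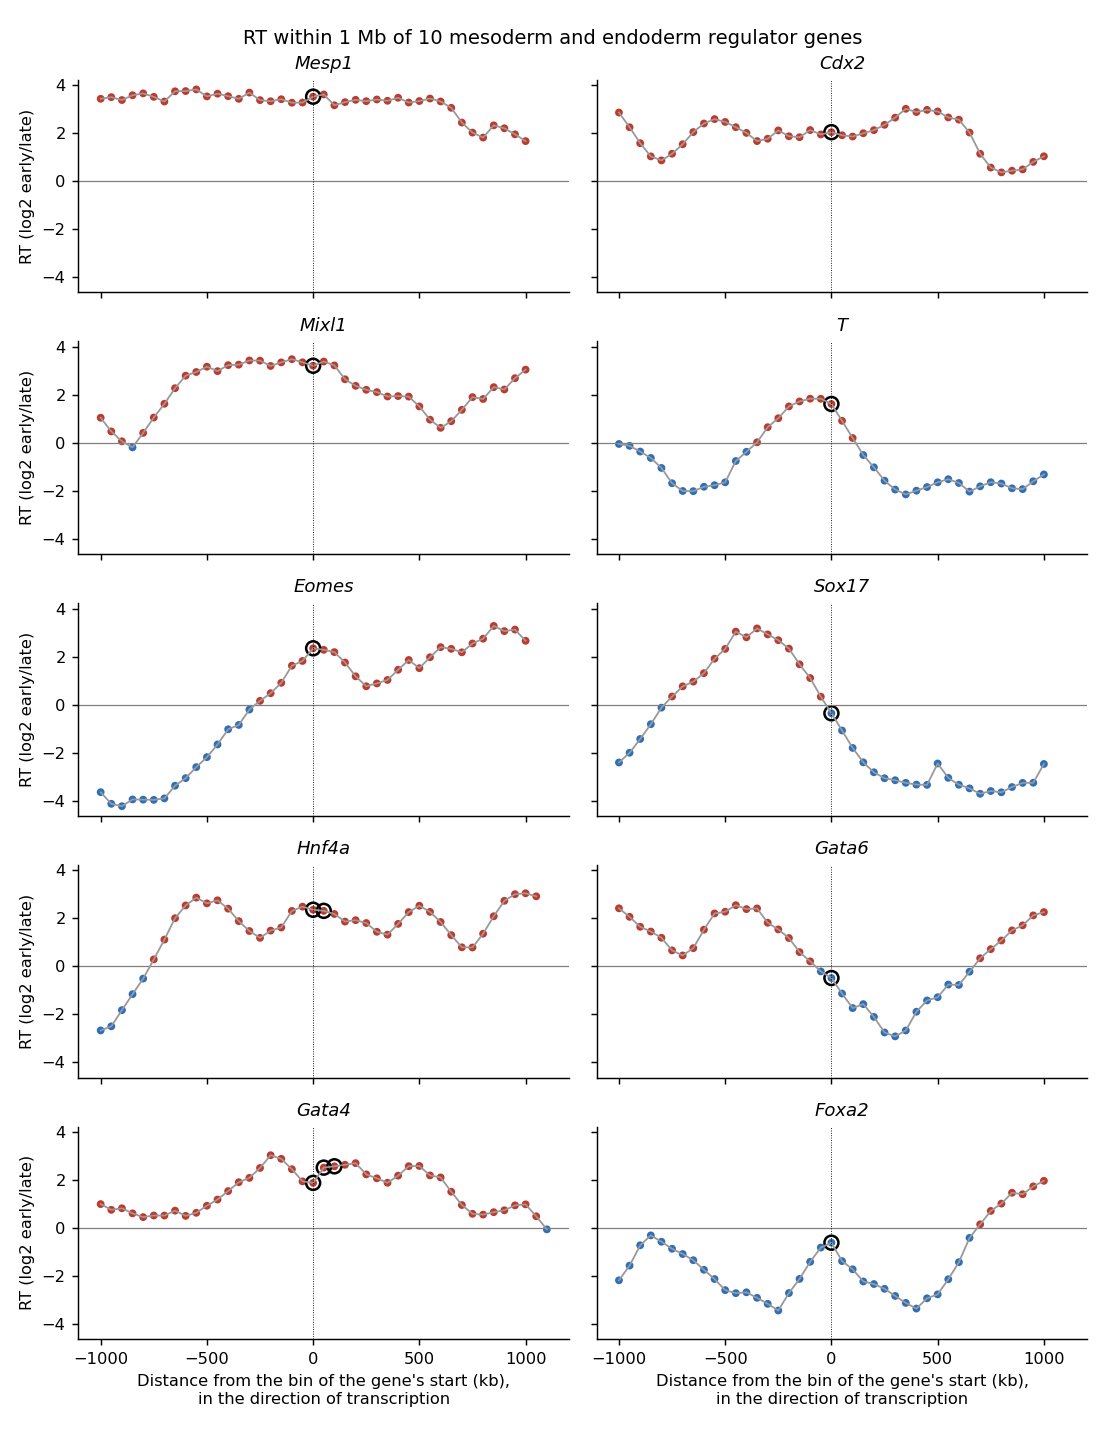
RT (log2 early over late) of each 50 kb bin within 1 Mb of the members, plotted against the distance from the bin of the gene's start in kb in the direction of transcription, with early bins in red, late bins in blue and the bins of the gene body circled. *Eomes* and *Foxa2* stand at a local maximum. *T* lies 100 kb downstream of one, on a slope that crosses 0 at 105 kb downstream of its start. *Gata6* and *Sox17* also lie on a slope that crosses 0.

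*T*, the gene for the founding T-box factor of the primitive streak, lies at chr17:8434423-8442496 (mm10, plus strand), 8.07 kb in 1 bin. Upstream of its start, RT was -1.64 at 500 kb, 1.03 at 250 kb and 1.84 at 100 kb. Downstream it was 0.92 at 50 kb, -1.57 at 250 kb and -1.64 at 500 kb. The gene therefore sits near the top of a short early peak with late bins on both sides. This early run goes from 8050001 to 8550000, 500 kb, with a mean RT of 1.14. An early run of at most 500 kb held 1 of 10 members and 5.23% of protein-coding genes. That limit equals the length of the run of *T* itself, so the share is a description and not an independent comparison. The start of *T* stood 3.26 log2 above the mean of the bins 500 kb away on either side, higher than 93.8% of protein-coding genes by that measure. *Sft2d1* and *Prr18*, 100 kb upstream, lie in the earliest bin of the window. The closest gene upstream, *T2*, overlaps the bin of *T* and had RT 1.73. *Pde10a*, which begins 82.9 kb downstream and reaches the latest bin, had a mean RT of -1.40.

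*Eomes*, a T-box gene needed for mesoderm, endoderm and trophectoderm, lies at chr9:118478212-118486132 (plus strand) in 1 bin with RT 2.35. Upstream, RT was -3.65 at 1 Mb, -2.19 at 500 kb and 0.16 at 250 kb, so the profile climbed toward the gene over most of that distance. Downstream it was 2.28 at 50 kb, 0.76 at 250 kb, 1.52 at 500 kb and 2.66 at 1 Mb. The bin of *Eomes* was itself a local maximum, the highest bin within 250 kb, and the first peak on the early side of a long transition. RT crossed 0 at 275 kb upstream of the start. *Golga4*, 20.1 kb away on the early side, had RT 2.23, and *Cmc1*, 328 kb away on the other, -0.69. The window ran from the bin of *Rbms3*, with RT -4.23, to the bin of *Myd88*, *Acaa1a*, *Oxsr1* and *Slc22a14*, with RT 3.28.

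*Mixl1* and *Mesp1* lay on early plateaus. *Mixl1*, a paired-type homeobox gene of the streak, lies at chr1:180693043-180697034 (minus strand). RT was 3.36 and 3.39 in the bins 50 kb upstream and downstream, 3.17 at 500 kb upstream and 1.52 at 500 kb downstream. Of the closest genes, *Lin9*, at 2.35 kb with RT 3.30, overlaps the bin of *Mixl1*, so its value is partly the same. *Acbd3*, at 29.0 kb with RT 3.42, was as early as *Mixl1* within the noise and lies in the earliest bin of the window. The latest bin, 850 kb upstream and overlapping *Ccdc121*, had RT -0.19 and was the only late bin. *Mesp1*, a basic helix-loop-helix gene, lies at chr7:79792241-79793788 (minus strand), 16.9 kb from its paralog *Mesp2*, in the neighboring bin with RT 3.28. RT was 3.53 at 500 kb upstream and 3.34 at 500 kb downstream, and the slope at the gene, 0.25 log2 per Mb, was one that 5.62% of protein-coding genes fell below. *Wdr93*, 6.29 kb away, had RT 3.57 and overlaps the bin of *Mesp1*. The earliest bin of the window (*Rccd1*, *Prc1*, *Unc45a*, *Hddc3* and *Man2a2*) had RT 3.82 and the latest, with *Mrpl46* and *Mrps11* 1 Mb downstream, RT 1.67.

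*Gata4* and *Gata6* encode closely related factors, and the first was early and the second late. *Gata4* lies at chr14:63198922-63271692 (minus strand) and covers 3 bins, with RT 1.88 in the bin of the start and 2.52 and 2.57 further downstream. The bin of the start differs from each of the others by more than the noise, and it is a local minimum. In its window, RT went from 3.03 in the earliest bin, with *Fam167a* and *Tdh* 200 kb upstream, to -0.06 in the latest, 1100 kb downstream, which overlaps 0 protein-coding genes. Its closest neighbors, *Neil2* and *Blk*, had RT 2.57 and 2.67, and *Neil2* lies in a bin that *Gata4* also overlaps. *Gata6* lies at chr18:11052064-11085635 (plus strand) in 1 bin with RT -0.49. Upstream, RT was 0.21 at 100 kb, 1.54 at 250 kb and 2.27 at 500 kb, and downstream -1.74 at 100 kb, -2.76 at 250 kb and -1.29 at 500 kb, before it returned to 2.26 at 1 Mb. *Gata6* thus lies on the near flank of a late valley of 750 kb, from 11000001 to 11750000, between early stretches. RT crossed 0 at 52.4 kb upstream of its start. The slope of 9.63 log2 per Mb was steeper than that of 88.9% of protein-coding genes. *Mib1*, 233 kb away on the early side, had RT 1.92 and *Rbbp8*, 548 kb away in the valley, -0.59. The earliest bin overlaps *Esco1*, *Snrpd1* and *Abhd3*, and the latest, 300 kb downstream, overlaps 0 protein-coding genes.

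*Sox17*, a SoxF gene of endoderm and endothelium, lies at chr1:4490931-4497354 (minus strand) on the steepest slope of the 10 members, 14.5 log2 per Mb, steeper than that of 97.9% of protein-coding genes. RT was 2.32 at 500 kb upstream, 1.11 at 100 kb and 0.33 at 50 kb, and then -0.36 at the gene, -1.08 at 50 kb downstream, -1.81 at 100 kb and -2.45 at 500 kb. The gene is thus at the point where the profile changes sign, on the late side, with an interpolated crossing of RT 0 only 3.72 kb upstream of the start, which is far below the 50 kb resolution. Its upstream neighbor *Mrpl15* was early (2.92) and its downstream neighbor *Rp1* late (-2.67). *Lypla1* and *Gm37988* lie in the earliest bin, with RT 3.17, and the latest, 700 kb downstream with RT -3.71, overlaps 0 protein-coding genes.

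*Foxa2*, a forkhead gene of endoderm, node and floor plate, lies at chr2:148042877-148046969 (minus strand) and had the lowest RT of the members, yet it was a local maximum inside a late run of 2850 kb. Upstream, RT was -0.81 at 50 kb, -1.41 at 100 kb and -3.44 at 250 kb. Downstream it was -1.38 at 50 kb, -1.72 at 100 kb and -2.53 at 250 kb. *Foxa2* stood 2.06 log2 above the mean of the bins 500 kb away, higher than 80.9% of protein-coding genes by that measure, although it was itself late. The closest genes are distant, *Pax1* at 650 kb with RT -0.41 and *Sstr4* at 348 kb with RT -2.91. The latest bin of the window, 250 kb upstream, overlaps 0 protein-coding genes, and the earliest, 1 Mb downstream with RT 1.97, overlaps *Xrn2*.

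*Hnf4a* and *Cdx2* lay in long early runs, of 6600 kb and 4900 kb. *Hnf4a*, a nuclear receptor gene at chr2:163506808-163572910 (plus strand), had RT 2.36 and 2.31 in its 2 bins. RT was lower on both sides, 1.19 at 250 kb upstream and 1.80 at 250 kb downstream, rose again to 2.62 and 2.52 at 500 kb, and was -2.67 in the bin of *Ptprt* 1 Mb upstream. Its neighbors *R3hdml*, which overlaps the first bin of *Hnf4a*, and *Ttpal* had RT 2.42 and 2.18. *Pigt* lies in the earliest bin, with RT 3.04. *Cdx2*, a caudal-type homeobox gene at chr5:147300805-147307270 (minus strand), had RT 2.04, with 2.47 at 500 kb upstream and 2.90 at 500 kb downstream. *Pdx1*, a homeobox gene of pancreas and its closest neighbor downstream, had RT 1.91, and *Urad*, 7.71 kb away, shares the bin of *Cdx2*. The earliest bin (*Gtf3a*, *Mtif3*) had RT 3.01 and the latest (*4930449I24Rik*, *Gm3402*, *Gm3404*, *Gm3409*) 0.37.

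In 4 of 10 members (*T*, *Eomes*, *Gata6* and *Sox17*) the start lay within 500 kb of a crossing of RT 0, and 48.7% of protein-coding genes did, so that the share of members was not above that of genes. The slope was above 8 log2 per Mb in *T*, *Gata6* and *Sox17*, 3 of 10 members, and in 16.9% of protein-coding genes with a slope. The limit of 8 was set after the values were seen. Within 100 kb of a local maximum, a bin that is the highest within 250 kb on each side, lay 7 of 10 members, all but *Gata4*, *Gata6* and *Sox17*. Of protein-coding genes, 38.2% did. This measure was chosen after the profiles had been seen. The maximum was the gene's own start bin in *Eomes* and *Foxa2*, and in the other members counted it lay in a bin nearby that exceeded the start bin by less than 2 noise SD. The count includes small bumps. Relative to the mean of the bins 500 kb away, the start was at -0.64 log2 in *Cdx2* and -0.22 in *Hnf4a*, and above 0 in the other members counted. With the maximum required within 50 kb, or to be the highest bin within 500 kb, the count was 4 of 10, against 24.8% and 26.1% of protein-coding genes. After a running median over 5 bins it was 5 of 10, against 45.8% of protein-coding genes, a share close to that of the members. Local minima lay within 100 kb of 2 of 10 members (*Gata4* and *Mesp1*), and of 21.2% of protein-coding genes.

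The shapes of the windows were compared between members by Pearson's correlation over 41 offsets in the direction of transcription, as a description, since the points of a profile are not independent. Of 45 pairs the most alike were *Mixl1* and *Hnf4a* (0.70), both with late or low values far upstream. The least alike were *Cdx2* and *Foxa2* (-0.82), as *Cdx2* lies in a shallow dip and *Foxa2* on a peak. Members on the same chromosome were far apart, *Foxa2* and *Hnf4a* by 15.5 Mb and *Sox17* and *Mixl1* by 176 Mb, so no window is shared.

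The members are richer in GC than most of the genome, and early genes are richer in GC. The bins of the gene bodies held between 42.3% GC (*Mixl1*) and 48.5% (*Mesp1*), with a median of 46.4%, compared with 44.4% over protein-coding genes and 41.1% over all bins. Across the 21679 genes, which share bins, RT and GC had a Spearman's correlation of 0.75. With the genes divided into 5 bands of equal size by GC, 8 of 10 members had RT below the median of their own band, as 50% of genes do by construction. *Foxa2* and *Gata6*, in the band from 43.2% to 45.8%, lay below its lower quartile of 0.82 (median 2.28). *T* (1.62) and *Cdx2* (2.04) lay below the lower quartile of theirs, 2.12 (median 3.11), while *Mesp1* in the same band lay above its upper quartile of 3.46. *Mixl1* was early for a band with a median of 0.75, above its upper quartile of 2.36.

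**Figure D3:**
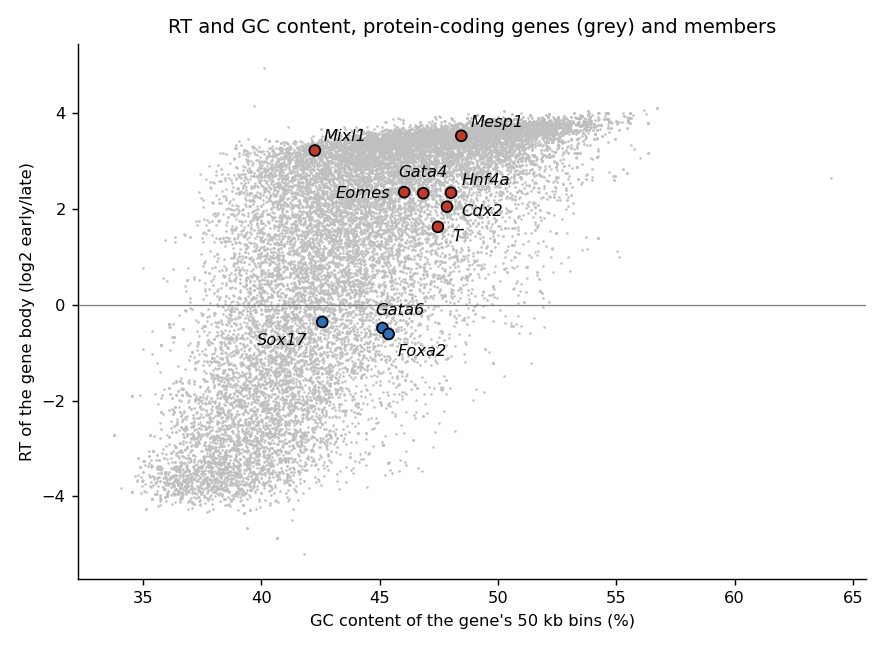
RT of gene bodies (log2 early over late) against the GC content of their 50 kb bins in percent, for all protein-coding genes in grey and for the 10 members in red (early) and blue (late). *Mixl1*, at 42.3% GC and RT 3.21, and *Foxa2*, at 45.4% GC and RT -0.61, go against the trend over genes.

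The number of other protein-coding gene starts within 1 Mb was 8 for *Gata6* and *Sox17*, 15 for *T*, 19 for *Eomes*, 20 for *Foxa2* and 44 for *Hnf4a*, with a median of 22.5 over the members and 29 over all genes. Only *Mesp1* (37) and *Hnf4a* exceeded that median of all genes, and 8.16% of protein-coding genes had fewer neighbors than *Gata6* and *Sox17*.

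At the scale of the promoter, CpG content did not follow the order of RT among the 6 members with a promoter entry. Of the members with RT below 0, only *Foxa2* had an entry, so the late side is barely covered. The promoters of 6 members (*T*, *Eomes*, *Mesp1*, *Foxa2*, *Hnf4a* and *Cdx2*) were found in the RefSeq table for GRCm38.p6 and 4 (*Mixl1*, *Gata4*, *Gata6*, *Sox17*) were not. Shown here are those of *Mesp1*, the earliest member, of *Foxa2*, the latest, and of *T* and *Eomes*, the early genes nearest to late DNA, the last pair picked after the values were seen. Each runs 5′ to 3′ from 250 bases before the RefSeq start to 50 after it, with every CG in capitals. The RefSeq start is that of the GENCODE gene body in *T* and *Foxa2*, but lies 23 bases upstream of it in *Eomes* and 198 bases downstream in *Mesp1*.
Mesp1 (chr7:79793541-79793840, minus strand): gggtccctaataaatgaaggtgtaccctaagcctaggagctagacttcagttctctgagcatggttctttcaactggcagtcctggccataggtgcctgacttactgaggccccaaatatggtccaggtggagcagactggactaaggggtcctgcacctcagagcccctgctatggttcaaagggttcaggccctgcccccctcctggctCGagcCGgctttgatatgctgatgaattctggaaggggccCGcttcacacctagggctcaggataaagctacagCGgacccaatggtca
T (chr17:8434173-8434472, plus strand): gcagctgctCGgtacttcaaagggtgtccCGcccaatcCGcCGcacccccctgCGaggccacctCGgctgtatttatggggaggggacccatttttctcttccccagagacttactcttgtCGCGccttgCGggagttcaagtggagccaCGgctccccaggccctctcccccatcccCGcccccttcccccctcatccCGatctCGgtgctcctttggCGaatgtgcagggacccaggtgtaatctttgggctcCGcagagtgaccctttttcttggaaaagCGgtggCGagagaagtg
Eomes (chr9:118477939-118478238, plus strand): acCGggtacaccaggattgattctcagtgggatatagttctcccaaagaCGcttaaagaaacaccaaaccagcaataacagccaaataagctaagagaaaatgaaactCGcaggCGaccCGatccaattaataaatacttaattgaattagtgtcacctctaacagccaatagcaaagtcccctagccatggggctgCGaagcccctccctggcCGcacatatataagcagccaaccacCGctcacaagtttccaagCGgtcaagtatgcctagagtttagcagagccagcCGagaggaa
Foxa2 (chr2:148046920-148047219, minus strand): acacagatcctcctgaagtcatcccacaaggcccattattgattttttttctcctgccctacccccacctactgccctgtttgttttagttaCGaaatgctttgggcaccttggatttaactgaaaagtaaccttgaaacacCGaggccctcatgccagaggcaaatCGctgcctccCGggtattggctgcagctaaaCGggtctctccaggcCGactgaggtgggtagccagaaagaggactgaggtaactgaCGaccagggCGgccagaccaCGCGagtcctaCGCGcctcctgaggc
The promoter of *Mesp1* holds 4 CG pairs, that of *T* 17, that of *Eomes* 10 and that of *Foxa2* 12. The observed over expected number of CG was 0.17, 0.61, 0.61 and 0.55 in the same order, 0.18 for *Hnf4a* and 0.73 for *Cdx2*, with a median of 0.61 over the promoters of 16383 protein-coding genes. *Mesp1* and *Hnf4a*, both early, hold 4 CG pairs each, the fewest of the 6, and *Foxa2*, the latest, was between them and *Cdx2*. Limits of 0.6 for this ratio and 50% GC were both exceeded by *T* and *Cdx2*, 2 of 6, and by 47.8% of the 16383 promoters. Over these genes RT and the ratio had a Spearman's correlation of 0.35.

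Most of the listed paralogs of the members were early, as were most protein-coding genes. The list does not hold every T-box gene. Of 16 listed paralogs, 14 had RT above 0, with a median of 3.21. Of all protein-coding genes, 72.5% had RT above 0, with a median of 2.23. Among the T-box genes listed, *Tbx6*, which acts in paraxial mesoderm, had RT 3.46 and *Tbx21*, a T cell factor, 3.61. *Tbx19* had 0.45 and *Tbr1*, the neuronal paralog of *Eomes*, -0.52. Among the GATA genes the hematopoietic *Gata1* (3.25, on X) and *Gata2* (3.30) and the endodermal *Gata5* (3.68) were early, *Gata3* (2.13) was near *Gata4*, and *Gata6* was the only late one. *Sox18* was early (3.43), *Sox7* had RT 0.62, and *Sox17* was the latest SoxF gene. *Foxa3* was early (3.79), and *Foxa1* (0.16) was close to 0. *Hnf4g* was late (-2.04) where *Hnf4a* was early. *Cdx1* (3.03) and *Cdx4* (3.16, on X) were earlier than *Cdx2*. GC differed as well, from 37.5% in *Hnf4g* to 52.7% in *Cdx1*, and its part in these differences was not tested.

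**Figure D4:**
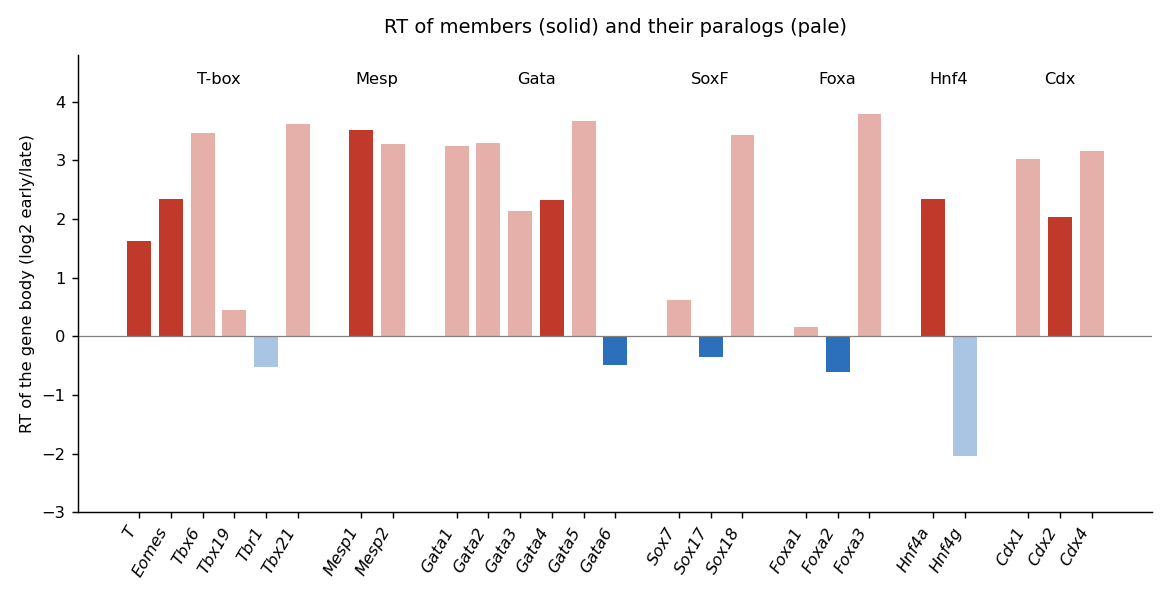
RT of gene bodies (log2 early over late) of the members (solid bars) and their listed paralogs (pale bars) by family. Early genes are in red and late genes in blue. *Sox17*, *Gata6* and *Foxa2* are the latest of their families, and *Hnf4g* has the lowest RT shown, -2.04.

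Most genes of the signaling pathways that act in gastrulation were early. Of 22 ligands and antagonists, 17 had RT above 0 (median 2.86), from *Nodal*, the inducer of mesendoderm, at 3.63 down to *Bmp2* at -3.70. Of 16 receptors and co-receptors, 14 did (median 2.16), with the activin receptor *Acvr1b* highest (3.55) and *Acvr2a* (-1.96) and *Fzd8* (-0.31) late. Of 15 intracellular mediators, 13 did (median 1.67). The Wnt effector *Tcf7* was highest (3.79), *Dusp6*, which limits ERK signaling, was lowest (-1.16), and *Smad5* was at 0 within the noise. These shares of genes above 0 compare with 72.5% over all protein-coding genes.

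Other transcription factors of the same lineages included genes far later than any member. Of all protein-coding genes, 72.5% had RT above 0 (median 2.23). Of 21 further mesoderm factors, 18 had RT above 0 (median 2.23). *Etv2*, of blood and endothelium, was highest (3.63), and *Isl1* (-3.54) and *Mef2c* (-2.56), both genes of heart development, were late. Of 15 further endoderm factors, 12 did (median 2.41), with *Foxa3* highest and *Prox1* (-1.16), *Nkx2-1* (-1.31) and *Pax9* (-1.93) late. *Mesp2*, *Tbx6*, *Sox7*, *Sox18*, *Gata5*, *Foxa1* and *Foxa3* are in these lists and among the paralogs.

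**Figure D5:**
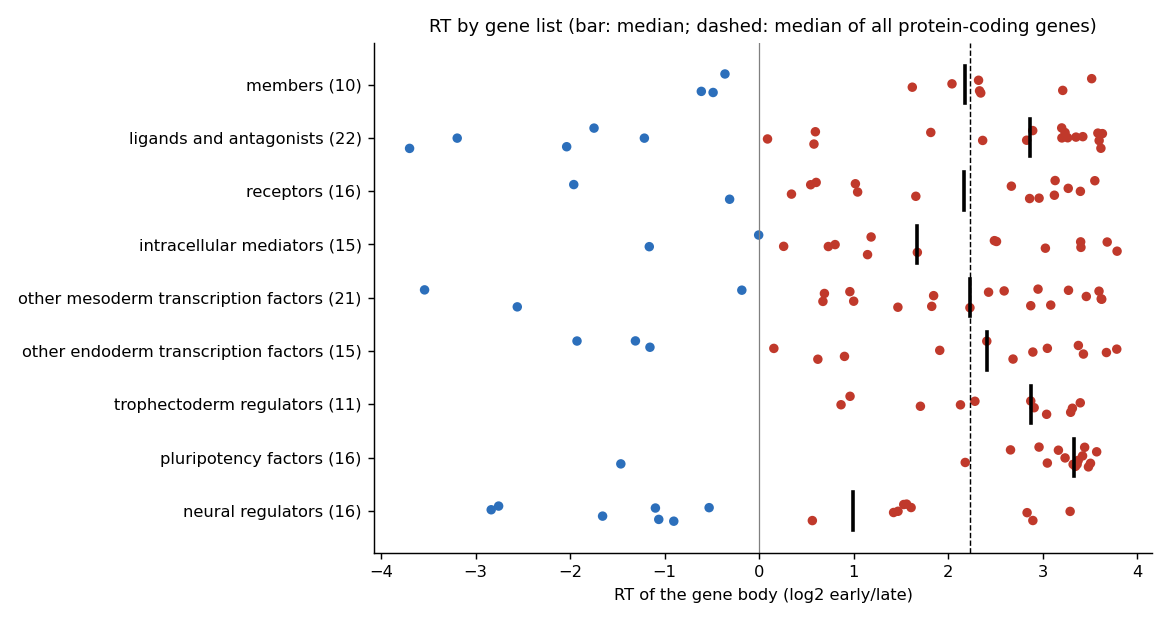
RT of gene bodies (log2 early over late) of the 10 members and of 8 related gene lists, each point a gene, with the list median as a bar, the number of genes in brackets and the median of all protein-coding genes, 2.23, dashed. The members have a median of 2.18 and a lowest value of -0.61, while the ligands reach -3.70 and the mesoderm factors -3.54.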

How the data were processed

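The submitters' processing notes name mm10, Bowtie2, SAMtools and bedtools. As the study's methods state, reads of each fraction were converted to RPM, and the deposited value is the log2 of early over late reads per 50 kb bin. How replicates were combined, and any smoothing, is not given in the sources used here. The column names no replicate or fraction and was read as combining the 4 libraries, so no test between samples was made.

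Positions in the table were read as bin starts on mm10. Gene bodies are from GENCODE vM21, and GC content is from the GRCm38.p6 assembly, whose primary sequence is that of mm10. The 274 bins of Y and the mitochondrial genome were left out. A gene's RT is the mean over the bins it overlaps, and 21679 of 21755 protein-coding genes had one. Crossings of RT 0 were interpolated between bins at most 200 kb apart. Slopes were fitted over 5 bins, and the noise SD is from stretches of at least 10 bins with slopes up to 2.5 log2 per Mb. A run is a stretch of consecutive bins on the same side of 0.

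All members are named, along with all listed paralogs. Of each list, the highest, the lowest and any minority of up to 3 late genes are named. Per window, the closest genes and those in the earliest and latest bins are named. Single genes that this rule would also name are not reported here. The members and lists were chosen with earlier results of these data known. The steps were tested on simulated data. Alternatives covered the bins, smoothing, limits and windows. Python 3.11.15, numpy 2.4.6, pandas 2.3.3, scipy 1.17.1 and matplotlib 3.10.9 were used.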

Additional observations from a re-analysis of the deposited data

How the results depend on the processing

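No paired analysis was possible because replicates and fractions have no columns of their own in the deposited table, and for the same reason no replicate was left out. Each member's RT stayed on the same side of 0 under the alternatives. The members' median stayed below that of all protein-coding genes, 2.23, with the start bin alone and after a running median. It rose above that value, to 2.32, without *T*, *Gata6*, *Sox17*, *Foxa2* or *Cdx2*. Members below RT -1 went from 0 to 1 with a running median over 5 bins or 2 more bins on each side. Early members numbered 7. With the limit at the median of all protein-coding genes, which splits those genes evenly by construction, they numbered 5. With the limit at the median of all bins, -0.98, they numbered 10, and 20.3% of all protein-coding genes had RT below -1. The median RT of the members, 2.18, was 1.96 with the bin of the gene's start alone and 2.01 with 2 more bins on each side, and 2.04 to 2.32 when any member was left out. Its difference from all protein-coding genes, -0.05, was -0.31 with the start bin alone. Members within 1 Mb of a crossing numbered 7, and 70.9% of protein-coding genes lay as close. The share of early bins in the windows, 69.0%, was 75.5% with the limit at the median RT of all bins. That limit splits all bins evenly by construction, while 40.9% of them had RT above 0. The alternatives for local maxima were chosen after seeing the data, and 2 of them gave 4 members in place of 7, within 50 kb or with the highest bin within 500 kb. A running median gave 5, against 45.8% of protein-coding genes. The highest bin within 150 kb gave 7 and a distance of 200 kb gave 8, against 49.998% and 59.8%. Among single genes the value of *Foxa2* moved most, from -0.61 to -1.38 after a running median over 5 bins and to -1.19 with 2 more bins on each side. What depth limits could not be tested, since the reads per library are unknown.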

Other observations

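The lists of other lineages spread around the members as follows. Of 16 pluripotency factors, 15 had RT above 0 (median 3.34), among them *Pou5f1* (3.51), *Sox2* (3.35) and *Nanog* (3.17), the core factors of embryonic stem cells, and *Lin28a* was highest (3.57). *Nr0b1*, on X, was the only late one (-1.46). Of 11 trophectoderm regulators, all 11 had RT above 0 (median 2.88), from *Esx1* at 0.87 to *Tead4* at 3.40. Of 16 neural regulators, 9 did (median 0.99), and *Dlx2*, of forebrain interneurons, was highest (3.29). The share above 0 over all protein-coding genes was 72.5%, which lies above that of the neural regulators and below that of the other lists named here. By median RT the members (2.18) stood between the neural regulators and the pluripotency factors. RT above 3 was found for 12 of 16 pluripotency factors, 2 of 10 members and 1 of 16 neural regulators, compared with 35.4% of all protein-coding genes. The difference between lists was not tested.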
